A study of Mus musculus with 36 samples.

Results

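Nuclear-encoded genes of oxidative phosphorylation were described in sorted bone marrow (BM) stem and progenitor cells of hypercholesterolemic mice. The genes taken were the protein-coding genes whose symbol starts with Nduf, Uqcr, Cox4, Cox5, Cox6, Cox7, Cox8 or Atp5, together with *Sdha*, *Sdhb*, *Sdhc*, *Sdhd* and *Cycs*. Of 38887 genes in the deposited table, 94 met this rule, and they are called OXPHOS genes below. They comprise 7 core subunits, 29 accessory subunits and 8 assembly factors of complex I, 4 subunits of complex II, 8 of complex III, cytochrome c, 20 of complex IV, 5 of the catalytic F1 head and 11 of the stalk and membrane part of complex V, and *Atp5s*, which was assigned to none of these. Oxidative phosphorylation takes place in the inner mitochondrial membrane, where complexes I to IV pass electrons from NADH and succinate to oxygen and complex V makes ATP from the proton gradient that builds up. Most of its subunits are encoded in the nucleus and imported, and the rest are encoded in mitochondrial DNA. Quiescent hematopoietic stem cells are known for a low use of oxidative phosphorylation, which rises as they enter the cycle and differentiate. Genes of mitochondrial DNA were not analysed here, and symbols of 11 pseudogenes that carry a matching name were left aside.

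The study sequenced RNA of LT-HSC, the stem cells that sustain blood formation over the long term, and of HPC-1, a population of progenitors that the deposited labels call ST-HSC, with 5000 cells sorted from BM for each sample. Every mouse lacked *Apoe* and had a C57BL/6 background. *Il27ra*, which encodes the receptor of IL-27, was intact in *Apoe*-/- mice (WT below), was lost in 1 copy in *Apoe*-/-*Il27ra*+/- mice (het) and in both copies in *Apoe*-/-*Il27ra*-/- mice (KO), in every cell of the body. From 8 weeks of age the mice ate a Western diet (WD) for 12 weeks, and pumps delivered PBS or Ang II (800 ng per kg per min) over the final 2 weeks. In LT-HSC, PBS gave 1 library of WT, 3 of het and 3 of KO, and Ang II gave 2, 4 and 4. In HPC-1, PBS gave 2, 3 and 3 libraries in the same order, and Ang II gave 3, 4 and 4. The labels state neither the gender of the mice, a factor in the model of the study, nor a batch. Y-linked expression was at the floor in 0 of 8 WT, 6 of 14 het and 6 of 14 KO libraries, and 0, 5 and 6 of them held over 4 M counts, so that Y-linked level and depth differ between WT and the other genotypes. Libraries held between 1980283 and 6861078 counts, with a median of 3139360, and 25 of the 36 held under 4 M. Levels are counts per M (mega) counts of the library's effective size after TMM normalization (CPM).

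*Il27ra* was read first as a check of the genotype labels. In LT-HSC after Ang II it was at 42.9 and 51.8 CPM in WT, at 30.2, 25.5, 27.1 and 32.8 CPM in het and at 16.3, 11.7, 16.2 and 19.3 CPM in KO. After PBS it was at 42.7, 24.1 and 25.6 CPM in het LT-HSC and at 9.42, 6.94 and 16.3 CPM in KO LT-HSC. These genotypes were apart in LT-HSC, but the single library labelled PBS WT LT-HSC, at 17.1 CPM, lay among the KO libraries. HPC-1 had 8.26 and 11.9 CPM in WT, 15.6, 11.1 and 9.97 CPM in het and 6.69, 11.1 and 8.35 CPM in KO after PBS. After Ang II, HPC-1 had 10.2, 8.88 and 6.07 CPM in WT, 5.46, 9.58, 14.3 and 16.5 CPM in het and 6.63, 5.91, 4.64 and 9.04 CPM in KO. The genotypes overlapped in HPC-1 under both agents, so that the level of *Il27ra* does not check those labels.

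Cell type labels were read against markers, as the sum over each marker list. The LT-HSC list (8 genes, *Kit* the most abundant) had 908, 1994 and 2743 CPM in LT-HSC libraries at the lowest, the median and the highest, and 699, 868 and 1401 CPM in HPC-1 libraries. *Kit* encodes a marker of the gate by which both cell types were sorted. Its mean was 910 CPM in LT-HSC and 717 CPM in HPC-1, so these sums rest in large part on a shared marker. All 8 of its genes were lower in HPC-1 (median log2 fold change −2.83), and all 5 genes of the multipotent progenitor list, with *Cd34* the most abundant, were higher (3.68). That list had 55.8, 145 and 1687 CPM in LT-HSC and 928, 1513 and 2238 CPM in HPC-1. The library labelled PBS KO LT-HSC replicate 2 went against its label. Its *Slamf1* level was 2.36 CPM, against 20.7 to 73.8 CPM in the other LT-HSC libraries and 0 to 8.23 CPM in HPC-1, and its *Cd48* level was 62.6 CPM, against 0 to 8.20 CPM and 44.0 to 85.6 CPM. Its LT-HSC list summed to 908 CPM and its multipotent progenitor list to 1687 CPM. It was kept under its label, and values without it are given for the main counts that rest on it.

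OXPHOS genes took a larger part of the RNA in HPC-1 than in LT-HSC. Their summed level was 4958 CPM in the PBS WT LT-HSC library, 4426, 3941 and 4102 CPM in PBS het LT-HSC and 3599.6, 6119.9 and 4497 CPM in PBS KO LT-HSC. In LT-HSC after Ang II it was 4354 and 5353 CPM in WT, 4274, 3894, 4705 and 4073 CPM in het and 3735, 5252, 4320.3 and 4047 CPM in KO. The highest LT-HSC value belonged to the library whose markers went against its label, and the next highest to Ang II WT replicate 2. PBS HPC-1 summed to 6478 and 7298 CPM in WT, 5332, 5532 and 6511 CPM in het and 5536, 5756 and 6074 CPM in KO. Ang II HPC-1 summed to 6096, 6581 and 7175 CPM in WT, 7037, 6938, 5031 and 6291 CPM in het and 5627, 5742, 7291 and 5808 CPM in KO. Within each condition other than PBS KO, all HPC-1 libraries lay above all LT-HSC libraries in CPM, and in PBS KO they did so without LT-HSC replicate 2. As a percentage of all counts PBS het overlapped as well, with HPC-1 replicate 1 at 0.480% and LT-HSC replicate 2 at 0.486%. Over all conditions the ranges overlapped, and the median was 4320 CPM in LT-HSC and 6096 CPM in HPC-1, a log2 ratio of 0.50. As a percentage of all counts, the OXPHOS genes had 0.387, 0.450 and 0.609% in LT-HSC and 0.480, 0.579 and 0.716% in HPC-1 at the lowest, the median and the highest. These are bulk samples, so fewer cells with a high level and less RNA per cell cannot be told apart.

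**Figure D1:**
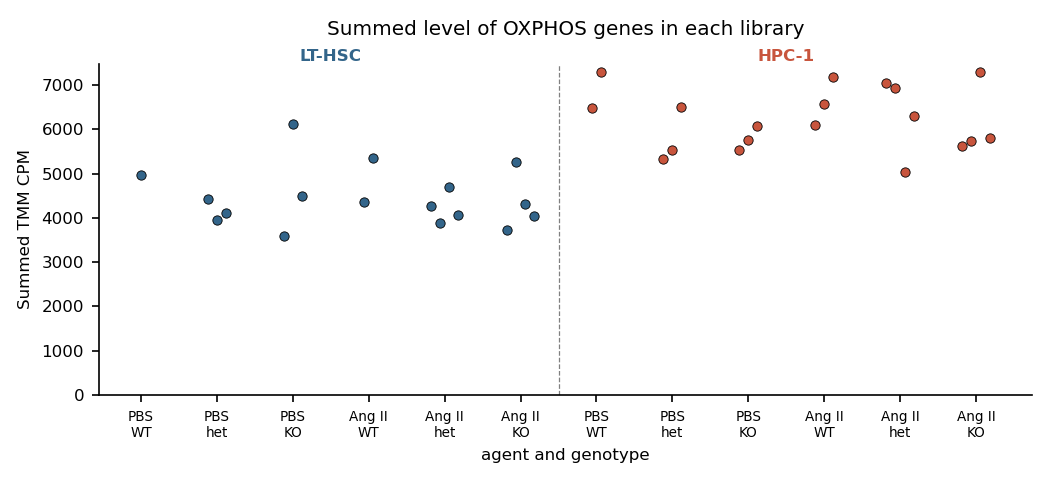
Summed level of the 94 OXPHOS genes in CPM (vertical axis) in each library, with 1 point for each library in the 12 groups of cell type, agent and genotype. In each condition other than PBS KO all HPC-1 libraries lie above the LT-HSC libraries, and the library labelled PBS KO LT-HSC replicate 2 lies at 6120 CPM.

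Gene by gene, HPC-1 was compared with LT-HSC as the mean over the 5 conditions with at least 2 libraries in each cell type, which leaves out PBS WT. A gene counts as called when its adjusted p is under 0.05 in the quasi-likelihood test of edgeR, with Benjamini-Hochberg adjustment over all genes tested. Below, a gene rose or fell where it was called higher or lower in HPC-1. Of the 89 OXPHOS genes tested, 56 were called and all 56 were higher in HPC-1, which is 62.9%, beside 36.3% of all 18013 genes called in either direction and 18.4% called higher. The median log2 fold change was 0.47 over the OXPHOS genes and −0.03 over all genes. It was positive for 84 of the 89 OXPHOS genes (94.4%, beside 48.2% of all genes). In none of the OXPHOS genes did every HPC-1 library lie above every LT-HSC library (0 of 89, beside 0.0333% of all genes). Without PBS KO LT-HSC replicate 2, 59 were called. Scaling by total counts alone gave 42 called genes, 78 positive ones and a median over all genes of −0.13. Relative to that median the OXPHOS genes lay 0.51 higher under total counts and 0.50 higher under TMM. The called genes had a median of 172 counts per library and the 33 others 71.8, and 28 of those 33 had a positive fold change, with a median of 0.21.

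**Figure D2:**
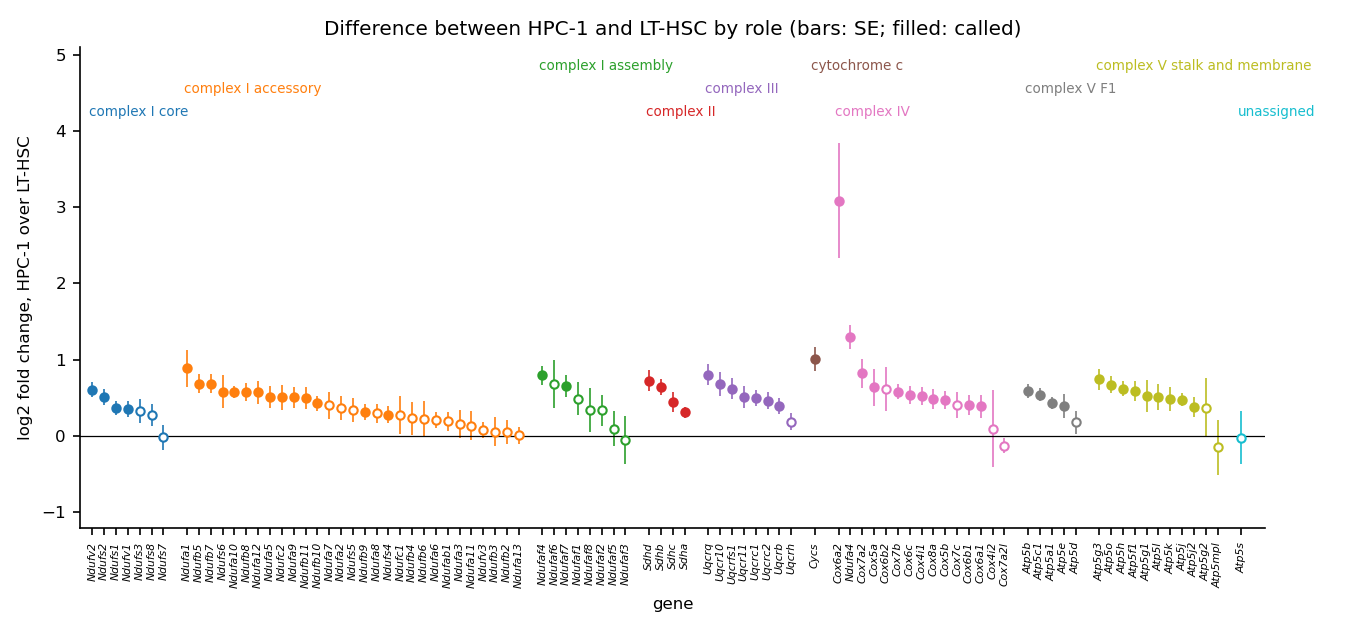
Log2 fold change of HPC-1 over LT-HSC (vertical axis) of each OXPHOS gene tested (horizontal axis, grouped and colored by role), with 1 point a gene, filled where the gene was called, and bars of 1 SE to either side. Filled points lie on the positive side in every role that holds any.

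Core subunits of complex I, which carry the flavin and the iron-sulfur clusters, summed to 262, 344 and 489 CPM in LT-HSC at the lowest, the median and the highest, and to 394, 471 and 564 CPM in HPC-1. Of 7 tested, 4 rose from LT-HSC to HPC-1 (57.1%, beside 18.4% of all genes, median of the 7 log2 fold changes 0.36). *Ndufv2*, a subunit of the NADH-oxidizing module, had 42.3, 60.7 and 92.8 CPM in LT-HSC and 62.7, 90.9 and 144 CPM in HPC-1. The ranges overlapped, and 8 of 19 HPC-1 libraries lay above the highest LT-HSC library. Its log2 fold change was 0.61 (adjusted p = 7.79e-06, SE 0.103) by edgeR. For *Ndufs1*, the largest core subunit, LT-HSC had 38.8, 64.7 and 80.2 CPM and HPC-1 55.6, 84.1 and 118 CPM, and the log2 fold change was 0.37 (adjusted p = 0.00173, SE 0.0947). *Ndufv1*, which binds the flavin, was called at 0.36 (adjusted p = 0.00833, SE 0.109). *Ndufs3* and *Ndufs7* were not called and had log2 fold changes of 0.33 and −0.02.

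Accessory subunits of complex I surround the core and are needed for its assembly or stability. They summed to 721, 849.6 and 1126 CPM in LT-HSC and 993, 1159 and 1356 CPM in HPC-1 at the lowest, the median and the highest. Of the 29 tested, 14 rose (48.3%, beside 18.4% of all genes, median 0.34). *Ndufa10* of the membrane arm had 47.3, 63 and 93.6 CPM in LT-HSC and 79, 93 and 131 CPM in HPC-1. Its ranges overlapped, although 9 of 19 HPC-1 libraries lay above all LT-HSC libraries (18 without PBS KO LT-HSC replicate 2), and the log2 fold change was 0.58 (adjusted p = 3.36e-07, SE 0.0814). *Ndufb7*, in the distal membrane arm, had 25.2, 38 and 66 CPM in LT-HSC and 43.4, 63.5 and 76.8 CPM in HPC-1, a log2 fold change of 0.68 (adjusted p = 2.14e-05, SE 0.124). *Ndufb5*, from the same arm, had 15.4, 23.8 and 38.8 CPM against 23.7, 38.6 and 57.8 CPM, a log2 fold change of 0.69 (adjusted p = 3.68e-05, SE 0.129). In both, LT-HSC and HPC-1 overlapped and most HPC-1 libraries lay above the LT-HSC median. *Ndufb10* was a further subunit of that arm with a call, with 43.3, 55.8 and 76 CPM in LT-HSC, 57.7, 78.2 and 106 CPM in HPC-1 and a log2 fold change of 0.43 (adjusted p = 0.000356, SE 0.0956). *Ndufb2*, with the lowest level per kb of the accessory subunits, had a log2 fold change of 0.05 that turned to −0.05 under total counts.

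Assembly factors help to build complex I and do not stay in it. Their sum was 73.7, 99.2 and 121 CPM in LT-HSC and 109, 129 and 214 CPM in HPC-1. Here 17 of 19 HPC-1 libraries lay above the highest LT-HSC library. Of 8 tested, 2 rose in HPC-1 (25%, beside 18.4% of all genes, median 0.42). *Ndufaf4*, which acts early in assembly, had 21.7, 31.9 and 49 CPM in LT-HSC and 33.1, 53.7 and 104 CPM in HPC-1, and 13 HPC-1 libraries were above the range of LT-HSC. Its log2 fold change was 0.79 (adjusted p = 1.05e-06, SE 0.12) by edgeR. *Ndufaf7*, a methyltransferase, had 6.74, 13 and 17.9 CPM in LT-HSC and 12.6, 18 and 23.8 CPM in HPC-1, a log2 fold change of 0.66 (adjusted p = 0.000298, SE 0.145). *Ndufaf3* had a log2 fold change of −0.05 and was not called.

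All 4 subunits of complex II, the succinate dehydrogenase that also serves the tricarboxylic acid cycle, rose in HPC-1 (beside 18.4% of all genes, median 0.54). Complex II summed to 254, 320 and 397 CPM in LT-HSC and 307, 426 and 493 CPM in HPC-1, with 12 of 19 HPC-1 libraries above the highest LT-HSC library. *Sdhb*, the iron-sulfur subunit, had 27.7, 39 and 66.7 CPM in LT-HSC and 47.3, 60.2 and 90.8 CPM in HPC-1. The highest LT-HSC library, PBS KO replicate 2, overlapped the middle of HPC-1, 17 of 19 HPC-1 libraries lay above the next, and the log2 fold change was 0.64 (adjusted p = 5.36e-06, SE 0.106). *Sdhd*, a membrane anchor, had 15.9, 31 and 57.1 CPM in LT-HSC and 33.5, 52.3 and 75.4 CPM in HPC-1, a log2 fold change of 0.73 (adjusted p = 2.81e-05, SE 0.134). *Sdhc*, the other anchor, had 17, 33.6 and 44.7 CPM and 25, 46.1 and 66.1 CPM, a log2 fold change of 0.44 (adjusted p = 0.0072, SE 0.133). The call of *Sdhc* was lost under total counts (adjusted p = 0.0558, over the alternatives 0.000176 to 0.0558) and without PBS het HPC-1 replicate 3 (0.31, adjusted p = 0.0509). *Sdha*, the flavoprotein, had the highest level of the 4 per length and the least difference, with 164, 218 and 269 CPM in LT-HSC, 168, 259 and 324 CPM in HPC-1 and a log2 fold change of 0.31 (adjusted p = 0.000637, SE 0.0732).

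Complex III, which hands electrons from ubiquinol to cytochrome c, summed to 286, 369 and 537 CPM in LT-HSC and 423, 554 and 697 CPM in HPC-1. Of its 8 subunits tested, 7 rose (87.5%, beside 18.4% of all genes, median 0.51). *Uqcrq*, a small subunit at the ubiquinone pocket, had 14.8, 28.9 and 60.4 CPM in LT-HSC and 27.8, 54.2 and 75 CPM in HPC-1, a log2 fold change of 0.81 (adjusted p = 1.45e-05, SE 0.142). LT-HSC and HPC-1 overlapped in it, with 7 HPC-1 libraries beyond the LT-HSC range and 17 without PBS KO LT-HSC replicate 2. *Uqcrc1*, a core protein, had 73.3, 95.1 and 165 CPM in LT-HSC and 96.9, 155 and 207 CPM in HPC-1, a log2 fold change of 0.50 (adjusted p = 0.000252, SE 0.107). *Uqcrfs1*, the Rieske iron-sulfur protein, had 16.9, 36.3 and 63.8 CPM and 32.2, 53 and 80.2 CPM, a log2 fold change of 0.62 (adjusted p = 0.000299, SE 0.136). Both overlapped as well. *Uqcrh*, the hinge protein, was the subunit not called, at 0.19. *Cyc1*, cytochrome c1 of this complex, lies outside the rule by its symbol and had 0.34 (adjusted p = 0.0638).

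*Cycs* (ENSMUSG00000063694, chr6:50562563-50566538, minus strand), which encodes the somatic form of cytochrome c, the mobile carrier between complexes III and IV, had 27.8, 41.9 and 85.5 CPM in LT-HSC and 49.1, 104 and 144 CPM in HPC-1. The LT-HSC library at the top was Ang II KO replicate 2, and 12 of 19 HPC-1 libraries lay above it. After PBS it had 51.5, 45 and 37.2 CPM in het LT-HSC and 86.7, 106 and 78.1 CPM in het HPC-1, which did not overlap. After Ang II it had 30.3, 85.5, 45.8 and 36.1 CPM in KO LT-HSC and 86.8, 104, 127 and 71.9 CPM in KO HPC-1, which overlapped through LT-HSC replicate 2. The log2 fold change over the 5 conditions was 1.01 (adjusted p = 5.28e-06, SE 0.158) by edgeR, and 0.93 to 1.10 with a single library left out.

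Complex IV reduces oxygen to water. Its nuclear-encoded subunits summed to 473, 607 and 976 CPM in LT-HSC and 668, 867 and 1005 CPM in HPC-1, and 4 of 19 HPC-1 libraries lay above the highest LT-HSC library, which was PBS KO replicate 2, and 17 above the next. Of 20 genes, 15 were tested and 11 rose (73.3%, beside 18.4% of all genes, median 0.53). *Ndufa4* (ENSMUSG00000029632, chr6:11900292-11907497, minus strand), named for complex I but assigned to complex IV, had the smallest adjusted p of the OXPHOS genes. In LT-HSC it was at 34.2 CPM in PBS WT, 16, 20.3 and 18.1 CPM in PBS het and 10.7, 43 and 21.8 CPM in PBS KO. After Ang II, LT-HSC had 11.6 and 12.4 CPM in WT, 19.3, 19.8, 28.7 and 11.3 CPM in het and 20, 17.7, 19.8 and 17.2 CPM in KO. The library at 43.0 CPM was again PBS KO replicate 2, and the next was the single PBS WT library. HPC-1 had 46 and 42.4 CPM in PBS WT, 28.1, 40.7 and 51.1 CPM in PBS het and 60.9, 53.6 and 51.2 CPM in PBS KO. With Ang II, HPC-1 had 34.7, 55.5 and 55.9 CPM in WT, 60.5, 49.7, 21.7 and 48.3 CPM in het and 32.6, 25.7, 53.6 and 42.8 CPM in KO. Every HPC-1 library was above the LT-HSC median and 11 of 19 were above the LT-HSC range (15 without PBS KO LT-HSC replicate 2). The log2 fold change was 1.30 (adjusted p = 2.39e-08, SE 0.161), and 1.42 without PBS KO LT-HSC replicate 2.

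Further subunits of complex IV were read in the same way. *Cox7b* had 37.8, 55.9 and 93.9 CPM in LT-HSC and 67.3, 88.8 and 149 CPM in HPC-1, a log2 fold change of 0.58 (adjusted p = 6.04e-06, SE 0.0973). *Cox7a2*, the form of subunit 7a found in most tissues, had 6.47, 12.7 and 23.2 CPM and 7.28, 21.4 and 55.5 CPM, a log2 fold change of 0.82 (adjusted p = 0.000623, SE 0.192). *Cox4i1*, the common form of subunit 4, had 58.3, 79.9 and 153 CPM in LT-HSC and 88.1, 125 and 193 CPM in HPC-1, a log2 fold change of 0.53 (adjusted p = 0.000247, SE 0.113). In these 3 genes LT-HSC and HPC-1 overlapped, with the HPC-1 median above the LT-HSC median. *Cox8a* had a log2 fold change of 0.49 (adjusted p = 0.00298, SE 0.132) and *Cox6b1* of 0.41 (adjusted p = 0.00942, SE 0.126), whose call was lost under total counts (adjusted p = 0.0512) and among libraries under 4 M counts (0.128). *Cox6a1* was called at 0.39 (adjusted p = 0.0356, SE 0.148), but in 8 of 14 alternatives and in 13 of 33 refits that left out a library. *Cox7a2l*, a paralog of *Cox7a2* that joins complexes III and IV into a supercomplex, had 60.2, 107 and 137 CPM in LT-HSC and 55, 90 and 112 CPM in HPC-1. Its log2 fold change of −0.13 (adjusted p = 0.392, SE 0.102) was not called and was negative in the alternatives, from −0.23 to −0.05. Whether it differed from that of *Cox7a2* was not tested.

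Forms of complex IV known from heart, muscle and lung were near the floor. *Cox6a2*, the heart and muscle form of subunit 6a, had 14 counts in all over 17 LT-HSC libraries, with 0 in 11 of them and 6 at most, and 82 counts over 19 HPC-1 libraries, with 0 in 2 and 17 at most. HPC-1 thus held most of the few counts, and the ranges overlapped. The fitted log2 fold change was 3.09 (adjusted p = 0.00117, SE 0.753), which depends on the prior count and is no bound, and the call was lost among libraries under 4 M counts (adjusted p = 0.0675). *Cox6a2* passed the count filter through HPC-1, with at most 0.886 CPM in LT-HSC, so that no conclusion is drawn from its call. That call is included in the 56 of all OXPHOS genes and the 11 of complex IV. *Cox4i2*, the lung form of subunit 4, had 75 counts over LT-HSC and 65 over HPC-1, with 0 in 6 libraries of each, and its log2 fold change of 0.10 turned to −0.01 under total counts. Without these 2 genes the median over complex IV remained at 0.53. *Cox6b2*, the testis form of subunit 6b, had counts in each of the 36 libraries, with 3.49, 7.47 and 25.7 CPM in LT-HSC and 6.29, 18.2 and 29.2 CPM in HPC-1, and was not called at 0.61 (adjusted p = 0.0946, SE 0.286). *Cox7a1*, *Cox7b2* and *Ndufa4l2* had too few counts to be tested (6, 11 and 24 in all), and *Cox8b* and *Cox8c* had 0 counts in each of the 36 libraries.

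Per kb of exon, the mean level over the 36 libraries ordered the paralogs clearly. On that scale *Cox4i1* was at 68 CPM per kb and *Cox4i2* at 1.42, *Cox6a1* at 50.1 and *Cox6a2* at 1.16, and *Cox6b1* at 52.4 and *Cox6b2* at 12.8. *Cox7a2l* was at 62.8 CPM per kb, *Cox7a2* at 19.1 and *Cox7a1* at 0.094. Levels per kb were 62.7 CPM for *Cox7b* against 0.133 for *Cox7b2*, and 24.1 for *Ndufa4* against 0.179 for *Ndufa4l2*. Of the genes of subunit c of complex V, which encode the same mature protein, *Atp5g3* was at 21 CPM per kb, *Atp5g1* at 5.05 and *Atp5g2* at 3.45. The highest levels per kb of all OXPHOS genes were those of *Atp5a1* (186 CPM per kb), *Atp5b* (136), *Atp5h* (100.2), *Uqcrb* (96) and *Cox8a* (93.1). These means pool LT-HSC and HPC-1, whose log2 fold change differs by gene (0.62 for *Atp5h*, 0.39 for *Uqcrb* and 0.49 for *Cox8a*). The order of genes with close levels may therefore differ within a cell type.

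The F1 head of complex V, where ATP is made, summed to 903, 1060.2 and 1584 CPM in LT-HSC and 1304, 1607 and 1957 CPM in HPC-1. Of its 5 subunits 4 rose (80%, beside 18.4% of all genes, median 0.43). *Atp5b*, the catalytic subunit beta, was at 529 CPM in PBS WT LT-HSC, 430.4, 358 and 349.9 CPM in PBS het LT-HSC and 357, 554 and 358 CPM in PBS KO LT-HSC. Ang II LT-HSC had 545 and 753 CPM in WT, 499.7, 374, 424 and 339.8 CPM in het and 361, 574, 381 and 344 CPM in KO. Ang II WT replicate 2 was thus the LT-HSC library closest to HPC-1 in this gene. PBS HPC-1 had 842 and 812 CPM in WT, 623, 582 and 598 CPM in het and 664, 595 and 572 CPM in KO. Ang II HPC-1 had 744, 826 and 782 CPM in WT, 909, 842, 572 and 570.1 CPM in het and 639, 582, 888 and 541 CPM in KO. Within WT the cell types overlapped after Ang II, and within het they were apart after either agent. The log2 fold change over the 5 conditions was 0.59 (adjusted p = 1.25e-06, SE 0.09). *Atp5c1*, the rotating subunit gamma, had 90.7, 116 and 156 CPM in LT-HSC and 137, 167 and 290.4 CPM in HPC-1, with 16 of 19 HPC-1 libraries above every LT-HSC library (17 without PBS KO replicate 2) and a log2 fold change of 0.54 (adjusted p = 2.51e-06, SE 0.0856). *Atp5a1*, subunit alpha, had 372, 477 and 703 CPM and 487, 661 and 820 CPM, a log2 fold change of 0.43 (adjusted p = 4.04e-05, SE 0.0818). *Atp5e* passed at 0.40 (adjusted p = 0.0483, SE 0.16), in 7 of 14 alternatives and 7 of 33 refits without a library, and *Atp5d* was not called (0.18).

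The stalk and membrane part of complex V, which holds the head and conducts protons, summed to 438, 556 and 869.5 CPM in LT-HSC and 773, 826 and 1112 CPM in HPC-1. Of 11 genes, 9 rose (81.8%, beside 18.4% of all genes, median 0.51). *Atp5h*, subunit d of the peripheral stalk, had 72.9, 105 and 164 CPM in LT-HSC and 138, 169 and 251 CPM in HPC-1, a log2 fold change of 0.62 (adjusted p = 2.84e-06, SE 0.0987). *Atp5o*, at the top of that stalk, had 35.6, 49.5 and 89.7 CPM and 65.5, 88.5 and 104 CPM, a log2 fold change of 0.67 (adjusted p = 6.56e-06, SE 0.113). In both genes the cell types overlapped, with 10 and 9 HPC-1 libraries above the LT-HSC range, and 13 for *Atp5o* without PBS KO LT-HSC replicate 2. *Atp5g3*, of the proton-conducting ring, had 18.4, 39.4 and 56.5 CPM in LT-HSC and 38.6, 54.8 and 104 CPM in HPC-1, a log2 fold change of 0.74 (adjusted p = 3.13e-05, SE 0.138). *Atp5j*, which encodes coupling factor 6, had 99.2, 112 and 166 CPM and 133, 171 and 231 CPM, a log2 fold change of 0.47 (adjusted p = 2.62e-05, SE 0.087). *Atp5g1* passed at 0.53 (adjusted p = 0.048, SE 0.211), in 7 of 14 alternatives and 9 of 33 refits, and *Atp5g2*, at 0.37 (adjusted p = 0.532, SE 0.384), was not called. *Atp5mpl*, which encodes a small proteolipid, was not called either and had the lowest log2 fold change of the OXPHOS genes, −0.15, and that of *Atp5s* was −0.02.

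**Figure D3:**
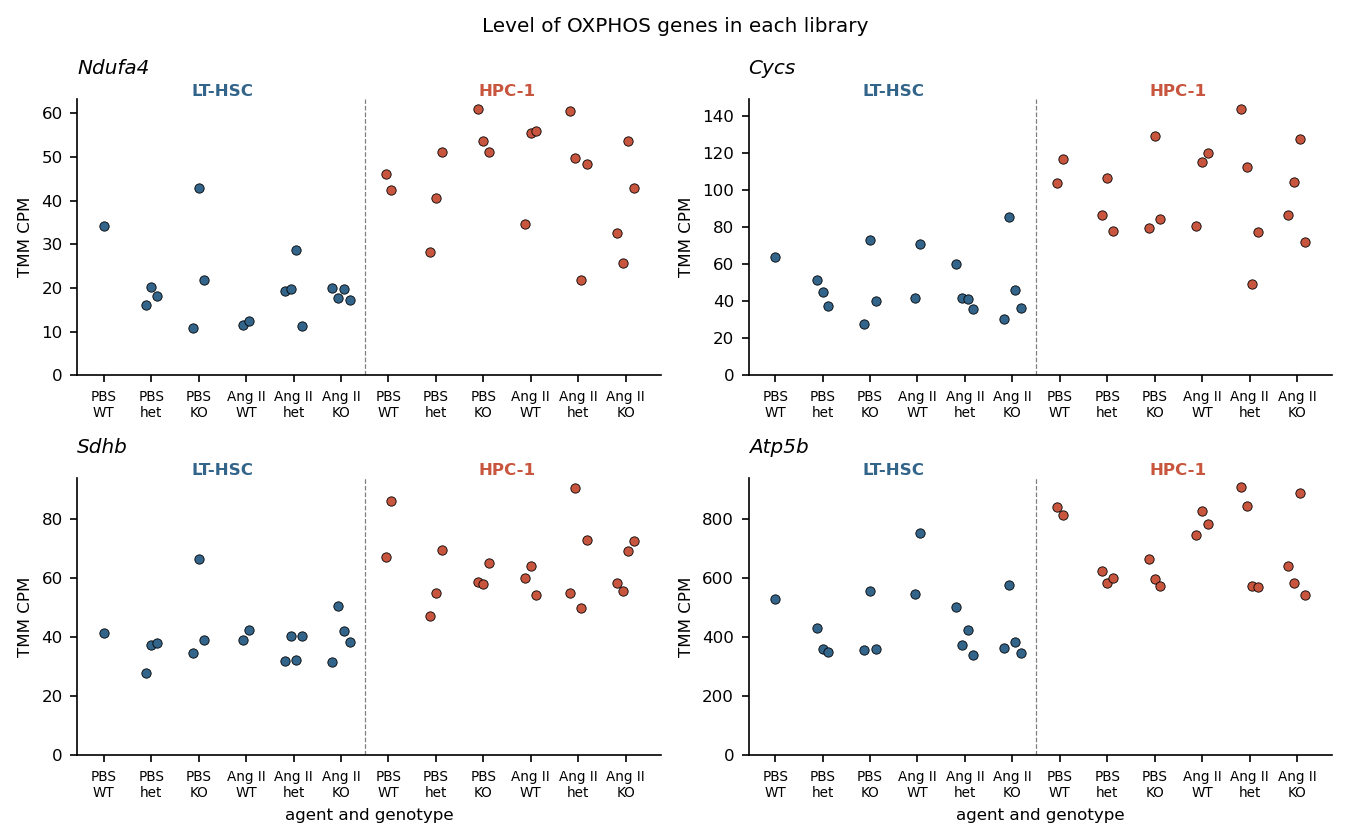
Level in CPM (vertical axes) of *Ndufa4*, *Cycs*, *Sdhb* and *Atp5b* in each library, with 1 point for each library in the 12 groups of cell type, agent and genotype. HPC-1 and LT-HSC overlap in each of the 4 genes, with most HPC-1 libraries above most LT-HSC libraries.

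Within single conditions, the log2 fold change of HPC-1 over LT-HSC was positive in all 5 for 52 OXPHOS genes, in 4 for 23, in 3 for 7, in 2 for 5 and in 1 for 2. The share positive in PBS het, Ang II het, PBS KO, Ang II KO and Ang II WT was 87.6, 92.1, 82, 88.8 and 82%. Of all genes it was 42.6, 46.5, 49.5, 45.5 and 49%. In PBS het, 6 of 89 were called, all higher in HPC-1 (6.74%, beside 7.67% of all genes called and 3.84% called higher). Among them were *Ndufaf4* (0.98 (adjusted p = 0.0217, SE 0.273)), *Atp5h* (0.79 (adjusted p = 0.0251, SE 0.226)), *Atp5b* (0.66 (adjusted p = 0.0395, SE 0.206)) and *Ndufa4* (1.14 (adjusted p = 0.0446, SE 0.361)). *Ndufaf4* had 27.7, 33.6 and 23 CPM there in LT-HSC and 62.5, 56.6 and 47 CPM in HPC-1, and *Atp5h* 114, 72.9 and 91.4 CPM and 179, 139 and 164 CPM, without overlap in either. All 4 calls were lost under total counts (adjusted p = 0.0554 to 0.103) and among libraries under 4 M counts (0.145 to 0.287). Those of *Atp5b* and *Ndufa4* were also lost by DESeq2 (0.0605 and 0.0556), with upper-quartile factors (0.0737 and 0.0687) and with a mean of 10 counts (0.0573 and 0.0520), and that of *Ndufa4* with the block of condition and number (0.0748). That count rested on single libraries, at 2, 1 and 0 without LT-HSC replicates 1, 2 and 3 and at 0, 2 and 1 without HPC-1 replicates 1, 2 and 3. In Ang II het, 24 were called, all higher in HPC-1 (27%, beside 14.9% of all genes called and 7.26% called higher). The smallest adjusted p belonged to *Atp5b* (0.82 (adjusted p = 0.0013, SE 0.179)), *Atp5h* (0.88), *Cox5b* (1.02) and *Sdhb* (0.89). *Cox5b*, of the subunits on the matrix side of complex IV, had 69.8, 66.6, 63.4 and 56.3 CPM in LT-HSC and 150.1, 168, 72.1 and 127 CPM in HPC-1 there. Its LT-HSC libraries all lay below its HPC-1 libraries. Among libraries under 4 M counts the calls of *Cox5b* (adjusted p = 0.0877) and *Sdhb* (0.0893) were lost. Without LT-HSC replicate 4 the count fell to 14, and without HPC-1 replicate 1 to 15.

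In PBS KO, 0 of 89 were called by edgeR (0.883% of all genes, 0.00555% called higher), 0 by DESeq2 and 14 by limma-voom. At an unadjusted p under 0.05 edgeR gave 6, all higher in HPC-1 (6.74%, beside 10.8% of all genes, 3.72% higher and 7.09% lower). *Ndufa4* had the smallest p there, with 10.7, 43 and 21.8 CPM in LT-HSC and 60.9, 53.6 and 51.2 CPM in HPC-1 and a log2 fold change of 1.10 (adjusted p = 0.146, SE 0.351). Without LT-HSC replicate 2, which is the library at 43.0 CPM, 5 OXPHOS genes were called. *Ndufa4* was then called by edgeR, with a log2 fold change of 1.71 (adjusted p = 0.00307). In Ang II KO, 17 were called, all higher (19.1%, beside 12.5% of all genes called and 5.48% called higher). Among them were *Atp5b* (0.67 (adjusted p = 0.00891, SE 0.178)), *Ndufa10* (0.55), *Ndufa4* (1.05), *Atp5h* (0.65) and *Atp5o* (0.72). *Atp5o* had 43.3, 67.8, 53.2 and 50.3 CPM in LT-HSC and 85.3, 79.7, 97.4 and 89.8 CPM in HPC-1 there. The calls of *Ndufa10* and *Atp5o* were lost under total counts (adjusted p = 0.0915 and 0.0820), that of *Ndufa10* also without a filter (0.113), and all 5 among libraries under 4 M counts (0.144 to 0.414). The LT-HSC value at the top was replicate 2, without which 26 genes were called. Leaving out LT-HSC replicates 1, 3 and 4 gave 1, 3 and 1, and leaving out HPC-1 replicates 2 and 3 gave 7 and 0. In Ang II WT, 14 were called, all higher in HPC-1 (15.7%, beside 10.4% of all genes called and 5% called higher). The median over the OXPHOS genes was 0.51. *Ndufa10* (1.02 (adjusted p = 0.00198, SE 0.217)), *Ndufa4* (2.02), *Cox7a2* (2.41), *Ndufaf4* (1.41) and *Sdhd* (1.58) came first. *Cox7a2* had 6.74 and 6.47 CPM in the LT-HSC libraries and 26, 24.4 and 55.5 CPM in HPC-1, which did not overlap. By limma-voom the calls of *Ndufa4* (adjusted p = 0.107), *Cox7a2* (0.144), *Ndufaf4* (0.104) and *Sdhd* (0.107) were lost. Without LT-HSC replicate 1 the count was 8 and without HPC-1 replicate 2 it was 9, and *Ndufaf4* (1.16, adjusted p = 0.0759) and *Sdhd* (1.30, adjusted p = 0.0933) were then not called without the former. A refit without a WT LT-HSC library leaves 1, which is assumed to vary like the libraries of the other groups. Whether the cell type difference itself differed between genotypes was not tested.

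Ang II was compared with PBS within each genotype and cell type, and 0 OXPHOS genes were called by edgeR, DESeq2 or limma-voom in any of the 5 comparisons, where 0% of all genes were called. At an unadjusted p under 0.05, edgeR gave 2 OXPHOS genes of 88 in het LT-HSC, 0 of 88 in KO LT-HSC, and 0 of 87 in each genotype of HPC-1, beside 4.93 and 0.917% of all genes in het and KO LT-HSC and 3.18, 3.93 and 1.85% in WT, het and KO HPC-1. The median log2 fold change over the OXPHOS genes was −0.02 in het LT-HSC and −0.14 in KO LT-HSC. In HPC-1 it was −0.06 in WT, 0.10 in het and 0.05 in KO. The sign of the median turned with the library left out in 4 of these, from −0.111 to 0.051 in het LT-HSC, from −0.293 to 0.112 in KO LT-HSC, from −0.17 to 0.0427 in WT HPC-1 and from −0.0108 to 0.109 in KO HPC-1, and ran from 0.0453 to 0.233 in het HPC-1. In KO LT-HSC the positive value was the one without PBS replicate 2, whose markers went against its label. *Atp5l*, subunit g of the membrane part of complex V, had the smallest p, with 52.5, 28.2 and 27.8 CPM after PBS and 21.2, 22.1, 21.8 and 20.2 CPM after Ang II in het LT-HSC. All 3 PBS libraries lay above the Ang II libraries, and the log2 fold change was −0.76 (unadjusted p = 0.0177, SE 0.293). *Sdhc* came first in het HPC-1, with 26.8, 25 and 56.5 CPM after PBS and 47.3, 52.5, 53.9 and 60.4 CPM after Ang II (0.55 (unadjusted p = 0.0517, SE 0.269)). *Cox5a*, in KO LT-HSC, had 16.3, 53.7 and 27.2 CPM and 8.51, 19, 20.9 and 23.7 CPM (−0.86 (unadjusted p = 0.0556, SE 0.422)). PBS and Ang II overlapped in *Sdhc* and *Cox5a*. The 53.7 CPM of *Cox5a* was PBS replicate 2, whose markers went against its label, and without it the log2 fold change was −0.28. The Ang II effect in WT LT-HSC was not tested, since 1 PBS library is at hand.

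The Ang II effect was also compared between groups. Between KO and het, 0 OXPHOS genes were called in LT-HSC and 0 in HPC-1 (0% of all genes in both), by edgeR, DESeq2 and limma-voom, with 0 at an unadjusted p under 0.05 by edgeR in either (2.53 and 1.28% of all genes). In LT-HSC the median difference was −0.14 (−0.283 to 0.103 with a library left out), with 27.3% positive beside 53.7% of all genes. In HPC-1 it was −0.02 (−0.113 to 0.0334), with 43.7% positive beside 50.7% of all genes. Between HPC-1 and LT-HSC, as the mean over het and KO, 0 of 89 were called by the same 3 tools (0% of all genes). The median difference was 0.15 (0.0429 to 0.279 with a library left out), with 77.5% positive beside 51.1% of all genes. One gene, *Cox5b*, had an unadjusted p under 0.05 (1.12%, beside 2.84% of all genes), with a difference of the log2 fold changes of 0.57 (unadjusted p = 0.0247, SE 0.245). *Cox5b* was at 76.8, 86.8 and 91.4 CPM in PBS and 84.5, 121, 121 and 128 CPM in Ang II KO HPC-1, and at 62.1, 102 and 70.8 CPM and 54.7, 105, 58.5 and 58.7 CPM in KO LT-HSC.

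Genotypes were compared within each agent. In LT-HSC after Ang II, 1 OXPHOS gene of 88 was called between KO and WT (1.69% of all genes), with 19 at an unadjusted p under 0.05, of which 11 were higher and 8 lower in KO (21.6%, beside 17.7% of all genes at that threshold). This was *Ndufaf1* (ENSMUSG00000027305, chr2:119655446-119662827, minus strand), an assembly factor of the membrane arm of complex I. It had 0.963 and 3.48 CPM in WT LT-HSC, from 2 and 7 counts, 7.54, 10.1, 14.1 and 8.1 CPM in het and 9.99, 11.2, 12.3 and 13.8 CPM in KO. Both WT libraries lay below all others of the Ang II LT-HSC groups. These WT libraries also held more *Cdh17* and *Krt19*, of the intestinal markers given below, than het and KO LT-HSC, and the part of this was not tested. The log2 fold change of KO over WT was 2.42 (adjusted p = 0.0261, SE 0.53) by edgeR. The call was lost without WT replicate 1 (1.78, adjusted p = 0.0811), KO replicate 3 (2.39, adjusted p = 0.0628) or KO replicate 4 (2.32, adjusted p = 0.0680), with the replicate number as a block (2.44, adjusted p = 0.0722), among libraries under 4 M counts (2.28, adjusted p = 0.368) and by limma-voom (2.58, adjusted p = 0.260, with a range from 0.00446 to 0.368 over the alternatives). Without WT replicate 1 or 2 the other WT library stands alone and is assumed to vary like the libraries of the other groups. The count of called genes was 0 without KO replicate 3 or 4, 4 without KO replicate 2 and 2 without WT replicate 2. The single library labelled PBS WT LT-HSC had 19.5 CPM of *Ndufaf1*, above the Ang II libraries of all genotypes. Its *Il27ra* level of 17.1 CPM lay among the KO libraries, so that its value may not be one of WT. The HPC-1 libraries of WT had 14.2 and 3.85 CPM of *Ndufaf1* after PBS and 10.8, 10.5 and 7.37 CPM after Ang II.

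**Figure D4:**
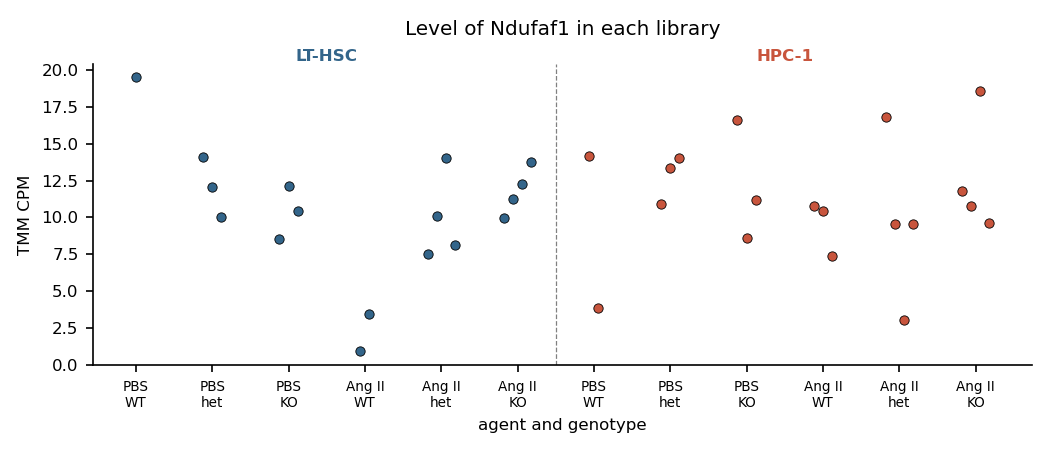
Level of *Ndufaf1* in CPM (vertical axis) in each library of the 12 groups of cell type, agent and genotype, with 1 point for each library. The 2 Ang II LT-HSC libraries of WT, at 0.963 and 3.48 CPM, lie below those of het and KO under the same agent.

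Between het and WT LT-HSC after Ang II, 0 OXPHOS genes of 88 were called by edgeR (0.831% of all genes), with 26 at an unadjusted p under 0.05, of which 11 were higher and 15 lower (29.5%, beside 15.7% of all genes at that threshold, 9.91% higher and 5.76% lower), 5 called by DESeq2 and 0 by limma-voom. *Ndufaf1* again had the smallest p (2.17 (adjusted p = 0.058, SE 0.529)), against the same WT libraries. Without WT replicate 1 the count was 3 and without WT replicate 2 it was 2, under the same assumption for the WT library that remains. Between KO and het LT-HSC, edgeR, DESeq2 and limma-voom each called 0, after Ang II (0% of all genes) as after PBS (0%), with 1 gene at an unadjusted p under 0.05 by edgeR in each (beside 2.6 and 3.99% of all genes). After Ang II this was *Atp5l*, with 21.2, 22.1, 21.8 and 20.2 CPM in het and 34.4, 40.1, 28.8 and 28.4 CPM in KO and a log2 fold change of 0.63 (unadjusted p = 0.0334, SE 0.274). After PBS it was *Cox7a2*, with 7.77, 12.7 and 10.9 CPM in het and 14.1, 23.2 and 18.8 CPM in KO and a log2 fold change of 0.83 (unadjusted p = 0.0315, SE 0.359). In both genes all KO libraries lay above those of het. The 23.2 CPM of *Cox7a2* was PBS KO replicate 2, without which its log2 fold change was 0.64. After PBS the median log2 fold change of KO over het was 0.17, with 68 of 88 OXPHOS genes positive (77.3%, beside 48.2% of all genes). After Ang II it was 0.02, with 53.4% positive beside 52% of all genes. With a library left out these medians ran from −0.0687 to 0.325 and from −0.0706 to 0.114.

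In HPC-1, 0 of 87 OXPHOS genes were called between any 2 genotypes by edgeR, DESeq2 or limma-voom. Of all genes, 0% were called after Ang II between KO and WT, het and WT, and KO and het, and after PBS 0.0152% between KO and WT, 0% between het and WT and 0% between KO and het. At an unadjusted p under 0.05 edgeR gave 6, 8, 1, 10, 5 and 0 OXPHOS genes in that order, beside 5.01, 7.39, 2.84, 6.55, 4.78 and 1.14% of all genes (6.9, 9.2, 1.15, 11.5, 5.75 and 0% of OXPHOS genes). Of these OXPHOS genes 0, 1, 0, 1, 0 and 0 were higher and 6, 7, 1, 9, 5 and 0 lower. Of all genes 2.1, 3.09, 1.52, 3.05, 2.43 and 0.47% were higher and 2.91, 4.3, 1.32, 3.5, 2.35 and 0.674% lower. After PBS the median log2 fold change against WT was −0.19 in KO (24 of 87 positive, 27.6%) and −0.20 in het (18 positive, 20.7%), from 2 WT libraries shared by both. Over all genes it was 0 in KO (50% positive) and 0.01 in het (51.1% positive). With a library left out it ran from −0.287 to −0.053 in KO and from −0.32 to −0.0903 in het, where the value nearest to 0 was in both the one without WT replicate 2. *Cox5b* had the smallest p in both comparisons, with 142 and 157 CPM in WT, 102, 77.1 and 107 CPM in het and 76.8, 86.8 and 91.4 CPM in KO. Both WT libraries lay above the others. The log2 fold change was −0.82 (unadjusted p = 0.00347, SE 0.254) for KO and −0.65 (unadjusted p = 0.0162, SE 0.254) for het. After Ang II, *Cox7a2* had 26, 24.4 and 55.5 CPM in WT and 7.28, 21.4, 9.56 and 23.4 CPM in het, a log2 fold change of −1.2 (unadjusted p = 0.0094, SE 0.425), and the het libraries all lay below those of WT.

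Other lists of mitochondrial and metabolic genes were read from the same comparison of HPC-1 with LT-HSC, in which 36.3% of all genes were called and 18.4% were called higher. Enzymes of the tricarboxylic acid cycle, which feed NADH to complex I, rose in 14 of 17 (median 0.47), among them *Idh2* at 0.84 (adjusted p = 1.24e-08) and *Cs* at 0.55 (adjusted p = 9.28e-07). Carriers and import proteins of mitochondria, through which nuclear-encoded subunits enter, rose in 14 of 16 (median 0.50), with *Hspd1* at 0.78 (adjusted p = 1.56e-08). Of 77 mitochondrial ribosomal protein genes 52 rose and 0 fell by edgeR, with a median of 0.47, and of 89 cytosolic ribosomal protein genes tested 50 rose and 0 fell, with a median of 0.26. Other assembly factors of complexes I to V rose in 6 and fell in 2 of 42 (14.3 and 4.76%, median 0.16), and *Atpaf2* (0.44 (adjusted p = 0.00599)) and *Atpaf1* (−0.44 (adjusted p = 0.0191)), which both build the F1 head, moved in opposite directions. Glycolytic genes and their regulators rose in 9 and fell in 7 of 20 (median 0.15), with *Pgam1* at 1.63 (adjusted p = 5.88e-10) and *Pdk4*, a kinase that holds pyruvate dehydrogenase inactive, at −3.69 (adjusted p = 4.11e-05). Of 12 regulators of mitochondrial genes, *Yy1* (0.36 (adjusted p = 0.0112)) and *Nrf1* (0.29 (adjusted p = 0.0365)) rose and *Ppargc1a*, a coactivator of mitochondrial biogenesis, fell (−1.55 (adjusted p = 0.00347)). *Tfam* and *Gabpa* had log2 fold changes of −0.02 and −0.00 and were not called.

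Marker lists moved between the same groups, and their part in the result for OXPHOS genes was not tested. All 12 genes of the cycling list rose in HPC-1 (median 0.88), and they summed to 2211, 3003 and 6034 CPM in LT-HSC and 4663, 6210 and 7728 CPM in HPC-1, with *Mki67* the most abundant. The 2 LT-HSC libraries with the highest cycling sums, Ang II KO replicate 2 (6034 CPM) and PBS KO replicate 2 (5554 CPM), were among the 3 with the highest OXPHOS sums. Granulocyte markers, with *Mpo* the most abundant, summed to 29.6, 55.2 and 8186 CPM in LT-HSC and 2431, 5519 and 7281 CPM in HPC-1, and of 9 genes 4 rose and 1 fell. The LT-HSC values at the top were again Ang II KO replicate 2 (8186 CPM) and PBS KO replicate 2 (3993 CPM), followed by PBS KO replicate 3 (1353 CPM). *Mpo* was at 3522 CPM in PBS KO replicate 2 but at 1110 CPM in Ang II KO replicate 2. The latter library had 2182 CPM of *S100a9*, 2114 CPM of *Ngp* and 1594 CPM of *Ltf*. In HPC-1 these genes were at most at 82.9, 58.2 and 44 CPM. Megakaryocyte markers fell in 6 of 6 and summed to 91.2, 941 and 2093 CPM in LT-HSC, with *Vwf* on top, and 60.7, 94.6 and 147 CPM in HPC-1, with *Itga2b* on top. Erythroid markers, led by *Car2* in mean level, fell in 7 of 10, at 224, 521 and 3583 CPM and 82.8, 257 and 753 CPM. *Car2* did not lead in each library. The hemoglobin gene *Hba-a2* ran from 0.857 to 1317 CPM over LT-HSC libraries. In PBS KO LT-HSC replicate 3, with 1317 CPM of it, *Hbb-bs* was at 754 CPM and *Car2* at 502 CPM. In Ang II KO LT-HSC replicate 2 the 3 genes were at 995, 711 and 394 CPM. The B lymphoid list, led by *Cd79b*, had 6.97, 11.9 and 19.3 CPM and 2.27, 14.1 and 20.6 CPM, and by edgeR 0 of the 2 genes tested of 6 were called. The intestinal list, led by *Muc13*, had 470.4, 593 and 1205 CPM and 421, 532 and 749 CPM. Of its 20 genes 17 were tested and 3 called lower (17.6%, beside 3220 of all 18013 genes), a share close to that of all genes. In LT-HSC its *Cdh17* was at 17.6 CPM in PBS WT and at 23.1 and 49.8 CPM in Ang II WT. Het and KO LT-HSC had at most 3.17 CPM of it. *Krt19* was at 10.5, 22.1 and 18.9 CPM in the same WT libraries and at most 0.951 CPM in het and KO. *Krt18* did not follow, at 101, 122 and 63.2 CPM in WT and up to 113 CPM in PBS het. What these genes mean for the comparisons with WT was not tested. In each list no marker was at 0 in all 36 libraries.

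Promoters were searched for short motifs known from OXPHOS genes, since many of these genes moved together. RefSeq promoters of build GRCm38.p6, each 300 bases long from 250 before to 50 after a start, were matched by gene identifier, or else by symbol. This gave a match for 75 of the 94 genes, with 80 promoters among 32851. Both strands were searched. The letters GCGCANGCG, a form of the motif bound by NRF1, were in 24 of the 80 promoters (30%) and in 6.25% of all promoters. CCGGAAG, of the ETS factors that include GABPA, was in 18 (22.5%, against 8.86%). AANATGGCG, of YY1, was in 11 (13.8%, against 2.38%), and the TATA box letters TATAAA were in 8 (10%, against 13.6%). Matches of different motifs or strands overlapped in 5 promoters. Among the 47 promoters of genes called higher in HPC-1, 36.2% held the NRF1 letters and 25.5% the ETS letters, and among the 30 promoters of genes tested and not called 23.3% and 20% did. The YY1 letters were in 14.9% and 13.3% of these sets and the TATA box letters in 4.26% and 13.3%. A match is a description and no proof of binding, and the difference between these shares was not tested. The 250 bases before the start are printed 5′ to 3′ for 4 genes with a call, with matches to the motifs in capitals, to show promoters with both the NRF1 and ETS letters (*Sdhd* at chr9:50603850-50604099 and *Atp5h* at chr11:115419920-115420169), with the NRF1 letters alone (*Cycs* at chr6:50566570-50566819) and with none of the 4 (*Ndufa4* at chr6:11907451-11907700), all from the minus strand.
Sdhd: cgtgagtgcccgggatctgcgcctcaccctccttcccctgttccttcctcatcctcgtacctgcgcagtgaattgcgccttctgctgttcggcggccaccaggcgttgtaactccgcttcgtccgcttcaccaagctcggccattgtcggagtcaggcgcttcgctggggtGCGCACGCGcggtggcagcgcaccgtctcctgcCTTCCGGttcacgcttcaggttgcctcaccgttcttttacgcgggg
Atp5h: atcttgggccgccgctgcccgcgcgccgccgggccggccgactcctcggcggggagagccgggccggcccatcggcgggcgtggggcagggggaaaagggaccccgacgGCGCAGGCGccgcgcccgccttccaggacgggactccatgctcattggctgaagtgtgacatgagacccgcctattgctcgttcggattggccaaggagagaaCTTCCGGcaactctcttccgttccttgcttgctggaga
Cycs: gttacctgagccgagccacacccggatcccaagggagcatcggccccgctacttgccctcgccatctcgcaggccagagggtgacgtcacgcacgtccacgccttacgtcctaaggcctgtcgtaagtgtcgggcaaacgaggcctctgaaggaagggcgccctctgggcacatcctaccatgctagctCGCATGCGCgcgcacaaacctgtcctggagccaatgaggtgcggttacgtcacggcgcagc
Ndufa4: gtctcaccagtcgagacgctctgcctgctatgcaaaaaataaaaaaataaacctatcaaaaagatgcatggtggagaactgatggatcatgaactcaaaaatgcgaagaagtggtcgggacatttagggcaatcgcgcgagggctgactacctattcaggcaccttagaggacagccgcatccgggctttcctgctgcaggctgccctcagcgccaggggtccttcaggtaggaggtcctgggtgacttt

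No RefSeq promoter entry was matched for 19 of the 94 genes, among them *Atp5a1*, *Cox4i1*, *Ndufs1*, *Sdhc* and *Uqcrq*. In the genome the 94 OXPHOS genes lie on 19 chromosomes, with at most 9 on a single one (chromosome 7). For 23 of them (24.5%), the start lies within 500 bases of the start of a protein-coding gene on the opposite strand, which holds for 6.20% of 21213 protein-coding genes of the table. Such pairs include *Sdhd* and *Timm8b*, an import chaperone, 98 bases apart, *Sdha* and *Ccdc127*, 29 bases apart, and *Ndufa7* and the ribosomal gene *Rps28*, 10 bases apart. The median exonic length was 1578 bases for OXPHOS genes and 3556 bases for protein-coding genes. Another gene on the same strand overlaps 9 of the 94, among them *Cox4i1* and *Ndufb8*, and a gene on the opposite strand overlaps 29, among them *Atp5j*, which overlaps *Gabpa*, and *Cox6a2*, which overlaps *Itgad*. How reads of such overlaps were assigned is not stated by the authors.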

How the data were processed

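RNA of 36 libraries was taken from a single deposited table of RSEM expected counts, in whole numbers and not normalized, which the authors made from stranded low-input total RNA libraries. The labels name RSEM 1.2.31, the methods of the study name another version and another aligner, and which of them made the table was not settled here. Symbols, biotypes, positions and exonic lengths came from the GENCODE M21 annotation, and promoters from RefSeq. Groups were taken from the labels, and no library was left out.

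In R 4.3.3, edgeR 4.0.16 (filterByExpr, TMM, robust quasi-likelihood test) was fitted over all genes, with 12 groups for comparisons between cell types and 6 groups for those within a cell type, with Benjamini-Hochberg adjustment at 0.05. This tested 18013 genes over both cell types, 16365 in LT-HSC and 13199 in HPC-1, and 24 comparisons were made. SE is the log2 fold change divided by the root of the F statistic. No p is given for a score over the OXPHOS genes. Named genes were the paralogs, the 3 genes of each role with the smallest adjusted p in the cell type difference, in other comparisons at most 5 called genes or else the one with the smallest p, the genes with the highest and lowest level of each role, *Cycs* and complex II. Genes of other lists, and members named outside this rule, were chosen after their values were seen. The OXPHOS genes and the lists were chosen with earlier results of these data known. The code was tested on simulated data.

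Alternatives were DESeq2 1.42.0, limma-voom (limma 3.58.1) with sample weights, upper-quartile factors, total counts, factors computed without the OXPHOS genes, a filter on means under 10 counts, a filter on a total count under 1 alone, replicate number as a block, a Y-linked covariate from 4 genes, omission of PBS and Ang II KO LT-HSC replicates 2, libraries under 4 M counts, all 6 conditions, and each library left out in turn, where a library that remains alone in its group is assumed to vary like the others. A block of condition and number, and protein-coding genes alone, were chosen after seeing the data. A gene of the list stays in its counts, sums and medians, and its own result is not reported here.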

Additional observations from a re-analysis of the deposited data

Results flagged for a closer look

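In the 4 groups of 4 libraries, the summed levels and the named genes were searched for a library far from the other 3, by the ratio of its gap to the whole range on the log2 scale. Chance gives such a library in about 1 in 20 groups, and 14 of 227 searches gave one.

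In Ang II KO HPC-1, replicate 3 stood above the others in the summed level of the OXPHOS genes (7291 CPM against 5627 to 5808 CPM, ratio 0.877), in the stalk and membrane part of complex V (1044 CPM against 802 to 821 CPM, ratio 0.915), in its F1 head (1957 CPM against 1424 to 1489 CPM, ratio 0.86) and in *Uqcrb* (129 CPM against 76.5 to 78.2 CPM, ratio 0.958). In the same group *Cox5b* was low in replicate 1 (84.5 CPM against 121 to 128 CPM, ratio 0.862). In Ang II het HPC-1, *Ndufa10* was high in replicate 2 (111 CPM against 91.4 to 94.2 CPM, ratio 0.847), and replicate 3 was low in *Ndufb2* (18.7 CPM against 25.9 to 27.4 CPM, ratio 0.857) and in *Uqcrq* (50.4 CPM against 61.6 to 63.5 CPM, ratio 0.871).

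In Ang II KO LT-HSC, replicate 2 was high in *Cox5b* (105 CPM against 54.7 to 58.7 CPM, ratio 0.894) and *Atp5h* (164 CPM against 91.8 to 101 CPM, ratio 0.842), and replicate 1 was low in *Atp5g3* (21.1 CPM against 39.7 to 40.6 CPM, ratio 0.965). In Ang II het LT-HSC, *Atp5h* was low in replicate 4 (89.4 CPM against 104 to 107 CPM, ratio 0.866), *Ndufa9* was high in replicate 3 (36.9 CPM against 30.7 to 31.1 CPM, ratio 0.924), and *Cox4i2* was found in replicate 2 alone (0.749 CPM against 0 CPM, ratio 1). With 2 counts there and 0 in the others, that ratio is set by the zeros and says nothing of the level. It is nevertheless counted among the 14.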

How the results depend on the processing

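Of 36 libraries, 25 held under 4 M counts, and the effect of depth on low genes was not tested. The 11 deeper libraries were all at the floor of Y-linked expression, so depth and Y-linked level cannot be told apart among them. The count of OXPHOS genes called between the cell types was 56. It was 51 with DESeq2, 59 with limma-voom, 51 with upper-quartile factors, 42 with total counts, 56 with factors computed without the OXPHOS genes, 53 without a filter, 52 with a mean of 10 counts, 61 with the Y-linked covariate, 59 without the pair of KO LT-HSC libraries, 40 among libraries under 4 M counts (over 4 conditions), 54 over all 6 conditions, 57 with protein-coding genes alone, and 47 to 59 with a library left out. None was called lower in any of these alternatives or refits. DESeq2 moved the median of all genes to −0.12 and the OXPHOS genes lay 0.52 above it. With the replicate block the count was 58, and with the block of condition and number, chosen after seeing the data, 57. Pairs of LT-HSC and HPC-1 with the same number had residual correlations with a median of 0.157 (−0.271 to 0.4, 9 of 16 over 0.1), and those with other numbers of −0.0428 (−0.374 to 0.442, 5 of 40 over 0.1). The labels do not say that a number marks a pair, and both blocks are given as alternatives.

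Counts within single conditions moved more, and the cause was not tested. From 6 in PBS het, the count became 2 with DESeq2, 16 with limma-voom, 2 with upper-quartile factors, 0 with total counts, 2 with a mean of 10 counts and 0 under 4 M counts, and 0 to 2 with a library left out. From 24 in Ang II het, it became 37 with limma-voom and 8 under 4 M counts, and 14 to 28 with a library left out. From 0 in PBS KO, it became 14 with limma-voom, 2 without a filter, 6 without the KO pair and 1 with the block of condition and number, and 0 to 5 with a library left out. From 17 in Ang II KO, it became 37 with limma-voom, 6 with total counts, 27 with the replicate block, 29 with the Y-linked covariate, 29 without the KO pair and 0 under 4 M counts, and 0 to 26 with a library left out. From 14 in Ang II WT, it became 4 with limma-voom, 22 with the Y-linked covariate and 8 with the block of condition and number, and 8 to 12 with a library left out.

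In Ang II LT-HSC, the count of 1 between KO and WT became 4 with DESeq2, 0 with limma-voom, 4 without a filter, 0 with the replicate block, 9 without the KO pair and 0 under 4 M counts, and 0 to 4 with a library left out. The count of 0 by edgeR between het and WT, with 26 at an unadjusted p under 0.05, became 5 with DESeq2, 1 with total counts, 1 without a filter and 5 without the KO pair, and 0 to 3 with a library left out. The other comparisons within a cell type and the interactions were at 0 in every alternative that ran, DESeq2 and limma-voom included, with the counts at an unadjusted p given above. The restriction to libraries under 4 M counts could not be run where a group kept fewer than 2 libraries, as in PBS KO. The block of condition and number was run for comparisons between cell types.

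The log2 fold changes of genes named by rule were followed through the alternatives, and those of other genes in the text were not. Of those followed, 4 turned their sign, all uncalled. *Cox4i2* went from 0.10 to −0.0126 with total counts, −0.0429 with the replicate block and −0.55 over all 6 conditions, and −0.38 to 1.30 with a library left out. *Atp5s* went from −0.02 to 0.0665 with limma-voom, 0.0325 with the Y-linked covariate and 0.16 under 4 M counts, and −0.18 to 0.37 with a library left out. *Ndufb2* went from 0.05 to −0.0221 with DESeq2, −0.0502 with total counts and −0.0204 under 4 M counts, and −0.10 to 0.29 with a library left out. *Ndufaf3* went from −0.05 to 0.0449 with the Y-linked covariate, 0.0107 without the KO pair, 0.0136 with the block of condition and number and 0.32 over all 6 conditions, and −0.26 to 0.0575 with a library left out. The cause was not tested.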
